A study of Mus musculus with 30 samples.

Results

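Of the 8609 Ikaros-bound regions listed for cultured pre-B cells of homozygous Ikzf3 G158R mice, 3789 (44.0%) shared no base with any region listed for WT pre-B cells, WT thymocytes or mutant thymocytes. These 3789 regions, found in the mutant pre-B list only, were chosen by comparing the 4 deposited lists, with an overlap of 1 base enough to leave a region out. The 4 lists hold 24085 regions in all: 3683 in WT pre-B cells, 8609 in mutant pre-B cells, 3572 in WT thymocytes and 8221 in mutant thymocytes. Each list comes from 1 library, so membership has no replicate check. A region missing from a list may still carry signal under the peak caller's threshold.

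All mice were C57BL/6. WT mice are Ikzf3+/+, het mice Ikzf3+/m and homo mice Ikzf3m/m, where m is an allele encoding Aiolos with the G158R substitution. Binding was mapped by chromatin immunoprecipitation and sequencing (ChIP-seq) in WT and homo cells, with antibody clone 4E9 against Ikaros and clone 9D10 against Aiolos. Its pre-B cells were B220+IgM- bone marrow cells cultured with IL-7, SCF and Flt3L over a Tst-4 stromal layer, whereas RNA was sequenced from pre-B cells sorted directly from marrow as B220+AA4.1+IgM-CD43-CD24+, with 3 libraries for each of WT, het and homo. The binding and the RNA values therefore come from different cell preparations. Pre-pro B cells, an earlier stage, were sorted as B220+AA4.1+IgM-CD43+CD24- and are used here only for WT.

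Ikaros, encoded by Ikzf1, and Aiolos, encoded by Ikzf3, are zinc finger transcription factors of one family that bind DNA at sites with a GGGAA core and form dimers with each other. They act in lymphocyte development, recruit chromatin remodelling complexes such as NuRD, and at the pre-B stage are known for lowering pre-B cell receptor signalling and IL-7-driven growth. The G158R substitution lies in the part of Aiolos that holds its DNA-binding zinc fingers.

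Among the 60 regions that touched a RefSeq promoter window (250 bases before to 50 after an annotated start site), 4 are shown, 3 because they lie at genes with a B cell role and that of Mest because it spans the whole stretch. The 250 bases before each start are printed 5′ to 3′ on the gene's strand, from RefSeq's GRCm38.p6, with GGGAA or its reverse complement TTCCC in capitals. Tlr9 encodes a DNA-sensing receptor of B cells, Igll1 a surrogate light chain of the pre-B cell receptor, and Bcl6 a repressor of germinal centre and pre-B cells. Mest is an imprinted gene.
Tlr9, chr9:106222348-106222597, plus strand: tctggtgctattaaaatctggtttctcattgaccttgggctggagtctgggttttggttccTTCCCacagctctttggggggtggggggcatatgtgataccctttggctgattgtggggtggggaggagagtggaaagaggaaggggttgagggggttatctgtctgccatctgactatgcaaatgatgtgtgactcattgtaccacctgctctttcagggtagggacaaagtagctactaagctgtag
Igll1, chr16:16863986-16864235, minus strand: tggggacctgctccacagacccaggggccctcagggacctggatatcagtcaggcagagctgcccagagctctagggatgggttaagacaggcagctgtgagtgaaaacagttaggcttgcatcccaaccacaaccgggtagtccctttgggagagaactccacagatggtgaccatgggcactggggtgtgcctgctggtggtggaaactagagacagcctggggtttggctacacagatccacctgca
Bcl6, chr16:23988853-23989102, minus strand: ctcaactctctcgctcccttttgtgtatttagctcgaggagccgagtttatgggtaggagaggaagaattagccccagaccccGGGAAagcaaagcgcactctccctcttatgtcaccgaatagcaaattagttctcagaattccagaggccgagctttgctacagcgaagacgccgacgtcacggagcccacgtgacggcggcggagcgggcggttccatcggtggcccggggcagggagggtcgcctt
Mest, chr6:30737800-30738049, plus strand: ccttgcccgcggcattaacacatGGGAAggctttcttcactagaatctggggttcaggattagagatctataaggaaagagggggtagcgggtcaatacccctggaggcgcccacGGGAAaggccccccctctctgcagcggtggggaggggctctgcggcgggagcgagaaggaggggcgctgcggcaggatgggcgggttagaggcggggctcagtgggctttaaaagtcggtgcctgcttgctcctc
The Mest stretch lay wholly inside its region (250 of 250 bases), that of Igll1 by 229 bases and that of Bcl6 by 84, while the Tlr9 region began 20 bases past the start site. The stretches hold 2 matches at Mest, 1 at Bcl6, 1 at Tlr9 and 0 at Igll1. Only the matches at Mest lay wholly inside a region. The Bcl6 match crossed the edge of its region, mostly outside, and the Tlr9 match lay outside. Over whole 300-base windows, GGGAA on either strand was present in 53 of 73 windows touched by the regions (72.6%) and in 20599 of all 32851 windows (62.7%). Other regions of the mutant pre-B list had similar shares. These were 72.3% for regions of both genotypes in pre-B cells only, 71.9% for regions of all 4 lists and 70.0% for mutant regions shared with mutant thymocytes only. The longer TGGGAA, which contains GGGAA, was present in 20.5% of the windows touched by the regions and 25.6% of all windows. In the other classes, in the same order, it was present in 29.8%, 29.2% and 21.1%. A match describes letters only, and the regions away from promoters could not be read for motifs because genome sequence was not used here.

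The regions of the mutant pre-B list only were narrow and of modest enrichment. Their deposited fold, which is signal over the peak caller's background, had a median of 4.24 (quartiles 3.80 and 4.78, from 1.39 to 9.95), their width a median of 272 bases (quartiles 233 and 340, from 212 to 1780) and their −log10 q a median of 4.46. Of the 3789, 727 (19.2%) had a fold of at least 5, 1545 (40.8%) a −log10 q of at least 5, and 57 were 1000 bases or wider. These are the authors' per-peak values from the list that chose the regions, so they are a description with no test.

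**Figure D1:**
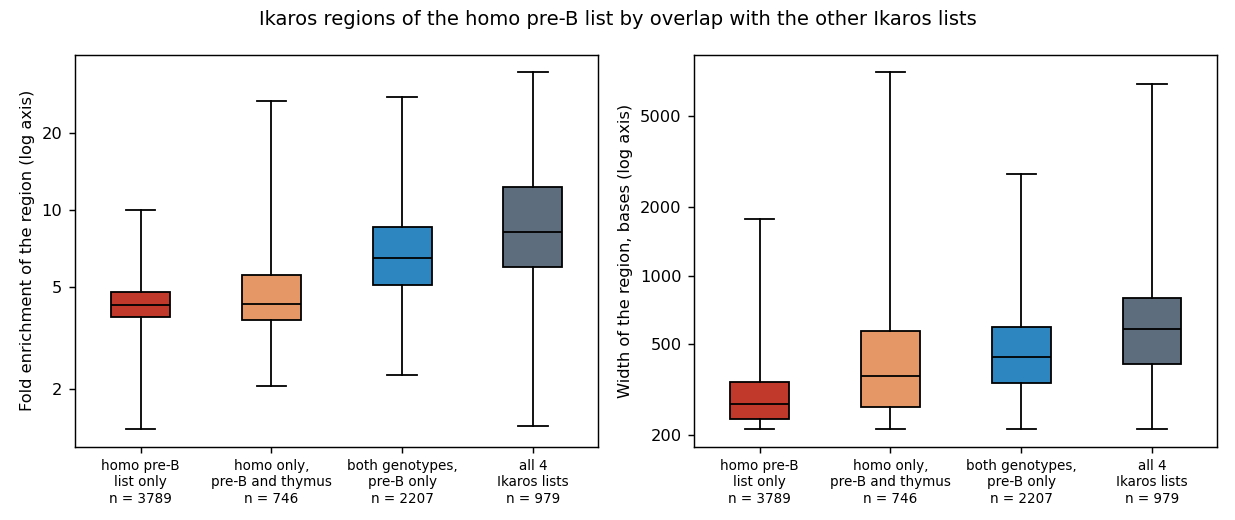
Deposited fold enrichment (left) and width in bases (right), both on log axes, for regions of the homo pre-B Ikaros list in 4 overlap classes; boxes span the quartiles with the median as a line, and whiskers reach the lowest and highest region. The 3789 regions of the homo pre-B list only have a median fold of 4.24 and a median width of 272 bases, against 6.45 and 438 for the 2207 regions of both genotypes in pre-B cells only.

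Regions shared with WT pre-B cells but with neither thymocyte list (2207) had a median fold of 6.45 and a median width of 438 bases in the same mutant library. Regions in all 4 lists (979) had medians of 8.19 and 584 bases, and the 746 mutant regions shared with mutant thymocytes but no WT list had medians of 4.30 and 363 bases. The WT pre-B list had a median fold of 5.23 and the whole mutant pre-B list 4.78. Of the WT pre-B regions, 22.8% lay below 4.24, the median of the regions of the mutant pre-B list only. Of the 3683 WT pre-B regions, 3488 (94.7%) overlapped the mutant list, while 3477 of the 8609 mutant regions (40.4%) overlapped the WT list.

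Near the rule's limit, the closest region kept was chr16:11323318-11323667, 9 bases from a region of another list with a fold of 3.18. The closest left out was chr2:119299916-119300195, which shared 3 bases and had a fold of 3.28. Few regions were so close: 36 of 3789 lay within 1 kb of a region of another Ikaros list, and 542 (14.3%) within 10 kb. The median distance to the nearest region of another Ikaros list was 54336 bases. For the WT pre-B list alone, 269 (7.10%) lay within 10 kb and the median distance was 138890.5 bases.

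The regions lay mostly far from start sites. Of the 3686 with an annotated start on their chromosome in the promoter table, 246 (6.67%) lay within 1 kb of one and 564 (15.3%) over 100 kb away, with a median distance of 22103 bases. Pre-B regions shared by both genotypes had almost the same values (7.32% within 1 kb, median 21181 bases). Mutant regions shared with mutant thymocytes had 46.9% within 1 kb and a median of 2232 bases. Inside annotated gene spans were 43.3% of the regions, against 43.8% of the shared pre-B regions and 66.9% of the mutant regions of both lineages. The classes come from 1 library each and were not tested.

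**Figure D2:**
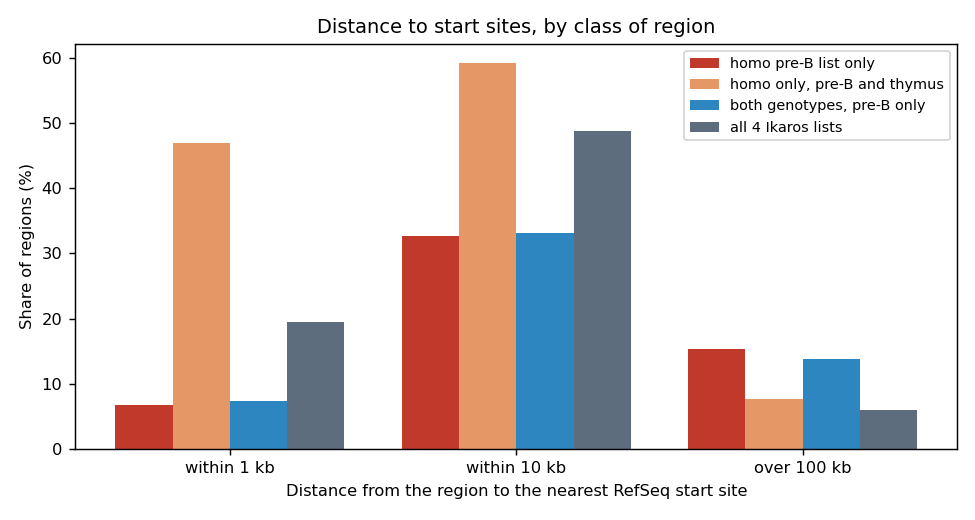
Share of regions (%, bars from 0) within 1 kb, within 10 kb and over 100 kb of the nearest RefSeq start site, in the 4 overlap classes. Regions of the homo pre-B list only (6.67% within 1 kb) sit beside regions of both genotypes in pre-B cells only (7.32%), and below the homo regions shared with thymus (46.9%).

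Aiolos ChIP regions almost never coincided with them. Of the 3789, 3 overlapped the 431 Aiolos regions of WT pre-B cells, 0 the 24 of homo pre-B cells, 0 the 25 of WT thymocytes and 1 the 184 of homo thymocytes. The 2207 pre-B regions of both genotypes had about as few, with 2 overlapping the Aiolos regions of WT pre-B cells and 0 those of homo thymocytes. The Aiolos lists are short, so few overlaps were possible. The X chromosome held 39 of the regions (1.03%) and 58 of the 3477 mutant regions that overlap a WT pre-B region (1.67%). No sex label is given for the ChIP mice.

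The 10 regions of highest fold lay in or beside a mixed set of genes. The first, chr11:117235628-117236002 with a fold of 9.95, lies inside Sept9, which encodes a septin of the cytoskeleton. In sorted pre-B RNA, Sept9 had 64.8, 70.5 and 77.1 CPM (counts scaled to library size) in the 3 WT libraries, 47.9, 47.3 and 63.0 in het, with 69.6, 94.0 and 55.1 in homo, and its homo against WT log2 difference of 0.06 ± 0.19 (SE) did not pass the test (adjusted p = 0.853). The WT and homo groups overlap.

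The next regions were chr12:73473127-73473514 with a fold of 9.21 and no linked gene, chr12:55599852-55600653 with 8.97 inside Insm2 and 2235 bases past Ralgapa1, chr19:34871007-34871320 with 8.87 inside Pank1, and chr13:41784011-41784444 with 8.85 inside Adtrp. Ralgapa1 and Pank1, a kinase of coenzyme A synthesis, were measured well enough to test, and neither passed between homo and WT, with log2 differences of 0.21 ± 0.15 and -0.33 ± 0.17. Insm2 and Adtrp were near 0 in every pre-B library. The gene nearest the region with no linked gene, D830013O20Rik, was at 0.

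Further regions of the top 10 lie inside Arhgap10 and Padi1 and past the end of Mettl10. Arhgap10, which encodes a GTPase-activating protein, had 19.9, 23.9 and 20.7 CPM in WT and 12.8, 13.9 and 8.38 in homo, all 3 below WT. It fell by 0.81 ± 0.19 on the log2 scale in homo against WT (adjusted p = 0.0148), a call lost without WT replicate 2 and with sex as a term (0.00147 to 0.0727 over 13 alternatives). Mettl10 differed by 0.10 ± 0.15 and did not pass, and Padi1 was under the filter on low counts.

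Some genes carried several regions. 1700112E06Rik, a gene model with a very long span, held 9, Ebf1 6, Cacna1g 5, Myo1e 5 and Acoxl 4. Ebf1 encodes a factor that sets B cell identity. Its 6 regions lay inside its span on chromosome 11 between bases 44636779 and 44950436, with folds from 3.31 to 5.79. Ebf1 RNA was 623, 641 and 626 CPM in WT, 724, 927 and 637 in het, with 697, 666 and 1314 in homo. The highest value is in homo replicate 3, the shallowest library, and the difference of 0.50 ± 0.25 did not pass (adjusted p = 0.225). Myo1e, an unconventional myosin, had 139, 155 and 155 CPM in WT and 139.6, 111 and 119 in homo, and did not pass (-0.28 ± 0.11, adjusted p = 0.129). Cacna1g, 1700112E06Rik and Acoxl were under the filter on low counts.

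The 5 widest regions were between 1581 and 1780 bases, with folds from 2.49 to 5.94. One, chr6:30737293-30738896, covers the Mest start site shown above and lies 2403 bases from Mir335, which had 0 counts in the 9 pre-B libraries. Mest, at 1.91, 3.21 and 2.09 CPM in WT and 3.16, 2.31 and 4.79 in homo, did not pass (0.36 ± 0.35, adjusted p = 0.522). Another, 1664 bases wide, covers the start of 4930526I15Rik, which did not pass.

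A gene was linked to a region that lay in its annotated span or within 5 kb of it. In that way 2061 of the 3789 regions (54.4%) were linked to 2018 genes, and 1728 to none. Of the 2018 genes, 433 (21.5%) were also linked to a region of the WT pre-B list. The pre-B libraries had 1888871 to 6757040 gene counts each, with homo replicate 3 the shallowest, and 1026 of the linked genes had enough counts to test. Nothing in the labels says that the 3 libraries of a group come from separate animals. By their RNA, the het and homo groups each hold XX and XY libraries, so not all libraries of these groups come from the same mouse. The WT libraries are all XX, which leaves this open for WT. The p-values weigh differences against the spread between these libraries.

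Genes linked to the regions were called both higher and lower in homo than in WT pre-B cells. Over all 11411 genes tested, 1811 were called (15.9%), 847 higher (7.42%) and 964 lower (8.45%), by edgeR's quasi-likelihood test at an adjusted p under 0.05. Of the 1026 linked genes, 277 were called (27.0%), 144 higher (14.0%) and 133 lower (13.0%). The median log2 difference of the linked genes was 0.04, against 0.02 over all genes, so the calls were divided almost evenly between the directions.

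That share was about the same as for genes linked to regions shared with WT. Of the 643 tested genes linked to pre-B regions of both genotypes, 90 were called higher (14.0%) and 87 lower (13.5%). Among linked genes with no WT pre-B region, 100 of 779 were called higher (12.8%) and 98 lower (12.6%). Genes linked to the mutant regions of both lineages had 34 of 621 higher (5.48%) and 70 lower (11.3%). These sets share genes, and their differences were not tested.

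**Figure D3:**
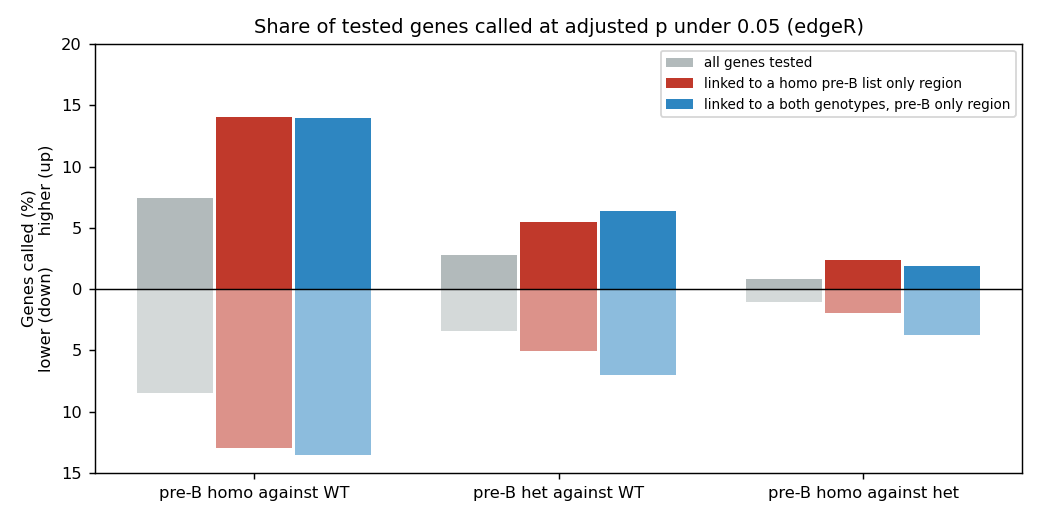
Share of tested genes (%) called higher (above 0) or lower (below 0) in each pre-B contrast, for all 11411 genes, genes linked to a region of the homo pre-B list only, and genes linked to a region of both genotypes in pre-B cells only. In homo against WT, 14.0% and 13.0% of the 1026 linked genes were called higher and lower, against 7.42% and 8.45% of all genes.

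Linked genes were longer than genes in general, with a median annotated length of 56.5 kb against 22.7 kb over all genes tested. Among genes not linked, the share called rose with length over the 4 classes, while among linked genes it was lowest from 10 to 30 kb (18.9%) and highest over 100 kb. Under 10 kb, 29 of 107 linked genes were called (27.1%) against 315 of 2790 others (11.3%), and over 100 kb 115 of 338 (34.0%) against 236 of 993 (23.8%). In each of the 4 length classes the share was higher among linked genes. Length is not the only way the sets could differ, and the difference was not tested.

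**Figure D4:**
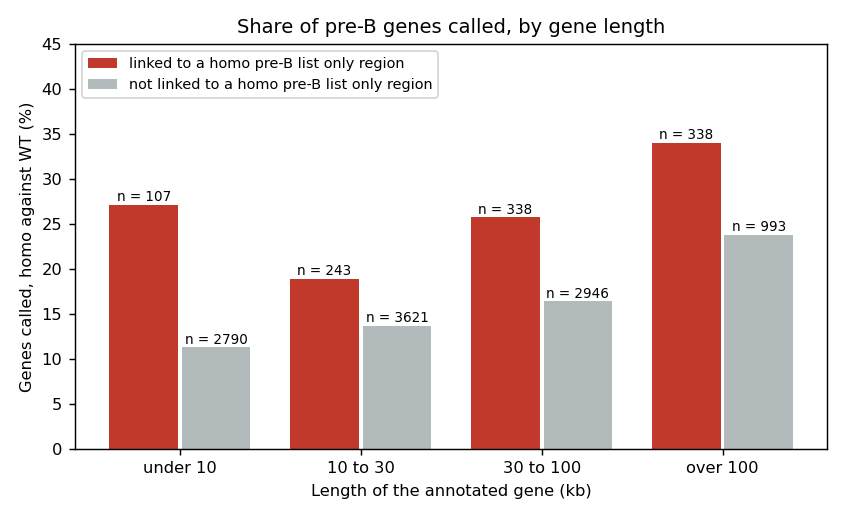
Share of tested pre-B genes (%, bars from 0) called in homo against WT, in 4 classes of annotated gene length, for genes linked or not linked to a region of the homo pre-B list only, with the number tested above each bar. The linked share runs from 18.9% (10 to 30 kb) to 34.0% (over 100 kb), above the share of the other genes in each class.

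Stronger regions had no larger share of called genes. Genes linked to a region with a fold of at least 5 were called in 48 of 235 cases (20.4%), against 27.0% of all linked genes and 15.9% of all genes. Those linked to a region with a −log10 q of at least 5 were called in 127 of 472 (26.9%). Genes with 2 or more regions were called in 48 of 138 (34.8%) and had a median length of 171 kb. For 3 or more regions it was 6 of 25 (24.0%). Of the 90 tested genes with a start site within 1 kb of a region, 17 were called higher (18.9%; all genes 7.42%) and 9 lower (10.0%; all genes 8.45%). These differences were not tested.

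Leaving out any 1 WT library cut the called linked genes to 15.2% to 17.0% of those tested (with 9.11% to 9.98% of all genes). All 3 WT libraries are from XX mice by their RNA, whereas het replicate 2 and homo replicates 1 and 3 are XY. With sex as a term, 210 linked genes were called (20.5%) and 12.1% of all genes.

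In het against WT, 705 genes were called (6.18%), and among the linked genes 56 were higher (5.46%; all genes 2.8%) and 52 lower (5.07%; all genes 3.38%). In homo against het, 216 genes were called (1.89%), and among the linked genes 24 were higher (2.34%; all genes 0.806%) and 20 lower (1.95%; all genes 1.09%). The 3 contrasts share libraries. In WT cells, 837 of 1154 linked genes (72.5%) differed between the pre-pro B and pre-B stages, against 64.3% of all 12440 genes tested. In pre-B cells 390 linked genes were higher (33.8%; all genes 31.0%) and 447 lower (38.7%; all genes 33.3%).

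Markers of other cell types were measured in the sorted libraries. All 8 pre-B markers were measured, with a summed level of 2148 to 2270.2 CPM in WT and 2072 to 3645 in homo. The 6 plasmacytoid dendritic markers summed to 427 to 457 CPM in WT and 420.3 to 564 in homo. The 6 erythroid markers summed to 0.803 to 3.18 CPM in WT and 0.599 to 2.52 in homo. The 6 stromal and endothelial markers summed to 9.06 to 13 and 12 to 16.4. The 6 natural killer and innate lymphoid markers summed to 2.07 to 3.39 CPM in WT, with Ncr1 and Gzmb at 0, and to 21.4 to 24.8 in homo. The 6 myeloid markers summed to 54.8 to 57.3 CPM in WT, with Elane and Cebpa at 0, and to 116 to 150.2 in homo, and the 6 T lineage markers to 41.2 to 42.9 and 24.5 to 31.6, with Cd3e, Cd3g and Cd8a at 0 in WT and Cd8a at 0 in homo. A sum can hide members that differ. Of the T lineage markers 2 were tested in homo against WT, with 1 called lower and Cd5 at 1.15 ± 0.38, which did not pass. Of the plasmacytoid dendritic markers 4 were tested, with 1 lower. Of the myeloid markers 2 were tested, with 1 higher, and of the natural killer markers 2, both higher. Over all genes tested, 7.42% were higher and 8.45% lower. Whether the RNA of these markers came from other cells or from the sorted pre-B cells, and its part in the gene results below, was not tested. In bulk RNA, fewer cells of a type cannot be told apart from less RNA per cell.

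Genes of terminal B cell differentiation changed in opposite directions. Prdm1, which encodes Blimp-1, the repressor that drives plasma cell differentiation, holds a region at chr10:44467570-44468453 with a fold of 3.17, 8822 bases from its start site. That region was weak, with a −log10 q of 1.38 against a median of 4.46 over the 3789 regions. Prdm1 RNA was 15.7, 15.3 and 13.3 CPM in WT, 112, 126 and 133 in het, with 181, 157 and 253 in homo. No 2 groups overlap. It rose by 3.72 ± 0.19 on the log2 scale in homo against WT (adjusted p = 6.54e-06) and by 3.06 in het against WT (adjusted p = 5.98e-05). The homo against het difference of 0.66 ± 0.17 did not pass (adjusted p = 0.0848). Sdc1, the syndecan CD138 that marks plasma cells, has a region 4085 bases before it at chr12:8767082-8767311. It had 108, 96.2 and 90.1 CPM in WT, 35.7, 21.7 and 54.3 in het, with 15.9, 13.6 and 4.19 in homo, and fell by 2.97 ± 0.37 (adjusted p = 0.00051).

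On the list of mature B and plasma cell genes, 4 of 19 positioned genes were linked, with 1 higher and 2 lower. Of all 24311 positioned genes, 2018 were linked. How the shares linked differ between the lists and all genes was not tested. The third called gene was Tlr9, whose region begins just past the start site shown above. It fell from 85.0, 75.3 and 80.3 CPM in WT to 20.2, 14.9 and 3.59 in homo (-2.46 ± 0.36, adjusted p = 0.00127), with 60.6, 55.6 and 34.7 in het. The lowest value is in homo replicate 3. Over the whole list, linked or not, 4 of 19 tested genes were higher and 9 lower. The shares over all genes tested were 7.42% higher and 8.45% lower.

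Of the 26 B lineage transcription factors, 10 were linked (all positioned genes: 2018 of 24311). Among the linked factors, 3 were higher and 1 lower in homo (median log2 difference 0.41). Over the whole list of 26, 4 were higher and 4 lower (median 0.10), so 3 of the 4 lower factors were not linked. Over all genes tested 7.42% were higher and 8.45% lower (median 0.02). Erg, an ETS factor of early haematopoiesis, has a region at chr16:95414993-95415290 with a fold of 4.65. It had 51.5, 42.8 and 54.9 CPM in WT, 134, 166 and 127 in het, with 254, 239 and 327 in homo, and rose by 2.45 ± 0.17 in homo against WT (adjusted p = 1.91e-05), by 1.51 in het against WT (adjusted p = 0.000699) and by 0.94 in homo against het (adjusted p = 0.0166). The 3 genotypes do not overlap, although the homo against het call ended without het replicate 1 or 3 (2.54e-05 to 0.0923 over 13 alternatives). Spib, an ETS factor of B cells, has a region inside it 527 bases from its start, at chr7:44531332-44531544. It had 571, 578 and 543 CPM in WT, 440.4, 482 and 468 in het, with 366, 328 and 314 in homo, and fell by 0.75 ± 0.11 (adjusted p = 0.00117).

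Among the other factors, Runx1 and Mef2c rose in homo. Runx1, needed for early B cell growth, holds 2 regions and rose by 0.42 ± 0.10 (adjusted p = 0.0144), from 225, 239 and 246 CPM in WT to 322, 299.7 and 332 in homo. Leaving out WT replicate 1, WT replicate 2 or homo replicate 1, or adding sex as a term, ended its call (3.38e-05 to 0.0865 over 13 alternatives). Mef2c, which acts below the pre-B cell receptor, holds 3 regions and rose by 0.84 ± 0.23 (adjusted p = 0.0351), but its call was lost without any 1 WT library and with sex as a term (0.000266 to 0.185 over 13). Bcl6, with the promoter region shown above, had 48.6, 53.7 and 52.0 CPM in WT, 88.3, 89.0 and 64.9 in het, with 77.8, 73.0 and 61.6 in homo. It rose in het (0.65, adjusted p = 0.0283) and was at 0.47 ± 0.15 in homo, which did not pass (adjusted p = 0.0581). The call in het ended without any 1 WT library or het replicate 1 or 2 (0.0017 to 0.139 over 13 alternatives).

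Of 24 genes of pre-B and B cell receptor signalling, 9 were linked (all positioned genes: 2018 of 24311). Among these 9, 1 was higher and 3 lower in homo (median log2 difference -0.03). Over the whole list of 24, 3 were higher and 4 lower (median -0.03), beside 7.42% higher and 8.45% lower over all genes tested. Cd22, an inhibitory coreceptor, has a region 2960 bases past its end at chr7:30862233-30862444, which also lies 763 bases from the start of Ffar1. Cd22 had 257, 253 and 262 CPM in WT, 389.9, 419 and 371 in het, with 458, 413 and 481 in homo, with every het and homo library above WT. It rose by 0.81 ± 0.11 (adjusted p = 0.000667).

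The lower genes were Pik3ap1, Inpp5d and Vav1. Pik3ap1, the adaptor BCAP that links the receptor to PI3 kinase, had 379, 397 and 362 CPM in WT, 282, 280.1 and 295 in het, with 228, 226 and 218 in homo, and fell by 0.76 ± 0.09 (adjusted p = 0.000494). Inpp5d, the phosphatase SHIP1 that opposes PI3 kinase, holds 2 regions within 5063 bases of its start and fell by 0.51 ± 0.11 (adjusted p = 0.011), a call lost without WT replicate 2 (3.55e-06 to 0.0573 over 13 alternatives). Vav1, a guanine nucleotide exchange factor, fell by 0.49 ± 0.12 (adjusted p = 0.0215), and its call was lost without homo replicate 1 or any 1 WT library and with sex as a term (0.000483 to 0.109 over 13).

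Igll1, whose region covers most of the promoter bases shown above (chr16:16864007-16864317, fold 5.04), was called in both contrasts with het. It had 82.5, 87.4 and 91.0 CPM in WT, 48.7, 57.1 and 61.4 in het, with 77.5, 112 and 114 in homo. It fell by 0.64 on the log2 scale in het against WT (adjusted p = 0.0422) and rose by 0.85 in homo against het (adjusted p = 0.0274), while homo against WT did not pass (0.21 ± 0.16, adjusted p = 0.412). The het against WT call ended without any 1 WT library or het replicate 1 or 2 and with sex as a term (0.0028 to 0.186 over 13 alternatives), and that of homo against het without het replicate 1 or 2 or homo replicate 2 (0.000242 to 0.145 over 13).

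Of 17 genes of IL-7 and JAK-STAT signalling, 4 were linked (all positioned genes: 2018 of 24311). Among these 4, 1 was higher and 1 lower (median log2 difference -0.22). Over the whole list of 17, 4 were higher and 1 lower (median 0.10), so the medians of the linked genes and of the list differ in sign. Of all genes tested, 7.42% were higher and 8.45% lower. Socs2, a feedback inhibitor of cytokine receptors, has a region inside its span at chr10:95416697-95417128, 247 bases from the start of 5730420D15Rik, and rose from 27.8, 26.9 and 40.3 CPM in WT to 52.7, 75.3 and 92.2 in homo (1.19 ± 0.24, adjusted p = 0.00713). Stat5a, a transcription factor below the IL-7 receptor, fell from 60.1, 52.1 and 57.6 CPM to 30.6, 40.8 and 24.5 (-0.79 ± 0.19, adjusted p = 0.0169). Leaving out WT replicate 1, WT replicate 3 or homo replicate 1 ended the Stat5a call (0.00103 to 0.0714 over 13 alternatives).

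Single linked genes of other lists were called too. Over whole lists, 0 of 18 tested genes of glucose uptake and metabolic control were higher and 3 lower. For adhesion and integrin genes 4 of 23 were higher and 3 lower, and for stem and progenitor genes 3 of 6 were higher and 1 lower. The shares over all genes tested were 7.42% and 8.45%. Cnr2, the cannabinoid receptor CB2, on the list of glucose uptake and metabolic control, has a region 4856 bases before its start at chr4:135890122-135890333. It fell from 70.7, 52.1 and 47.2 CPM in WT to 30.5, 30.7 and 31.1 in het, with 8.52, 7.55 and 4.19 in homo (-2.95 ± 0.23 in homo against WT, adjusted p = 3.53e-05), and no groups overlap. Vcl, the focal adhesion protein vinculin, fell by 0.68 ± 0.19 (adjusted p = 0.036), and its call was lost without any 1 WT library or homo replicate 1 or 2 (0.00396 to 0.122 over 13). Meis1, a homeobox factor of stem cells with a region 819 bases past its end, rose by 0.81 ± 0.23 (adjusted p = 0.038), and its call was lost without any 1 WT library or homo replicate 2 or 3 and with sex as a term (0.015 to 0.132 over 13).

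Of the remaining lists no linked gene was called in homo against WT. Their linked genes included Xrcc4 for V(D)J recombination, Cdk2 and Mcm5 for the cell cycle, Cd5 and Tox for the T lineage, Gbp3, Ifih1 and Irf9 for the interferon response, Bbc3 and Bcl2l1 for apoptosis, and Chd4, the NuRD remodeller, for partners of Ikaros. Their log2 values in homo against WT ran from -0.96 ± 0.32 for Bcl2l1, a survival factor (adjusted p = 0.0749), to a 2.84-fold higher level (log2 SE 0.60) for Bbc3, a death factor (adjusted p = 0.128). Bbc3 and Bcl2l1 were uneven in homo, at 25.2, 18.2 and 2.99 CPM and at 152, 129.9 and 46.1 CPM, with the lowest of each in replicate 3. None of the 14 Notch receptors and targets was linked (all positioned genes: 2018 of 24311), a list too short to read much from. Neither Ikzf1 nor Ikzf3 was linked, and neither passed in homo against WT (0.27 ± 0.19 and -0.05 ± 0.14); the RNA of Ikzf3 was 545, 549 and 517 CPM in WT and 491, 459.6 and 612 in homo.

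**Figure D5:**
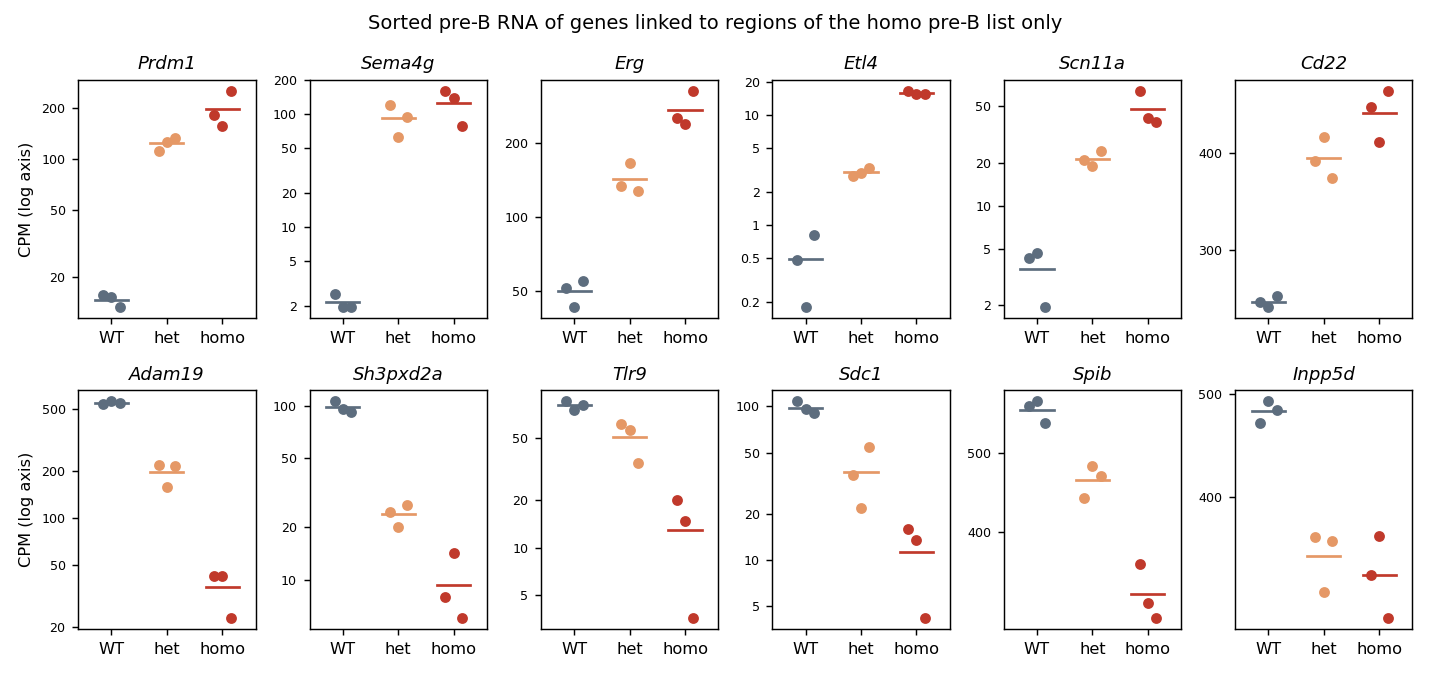
CPM (log axes, which differ between panels) in each of the 3 sorted pre-B libraries of WT, het and homo, with group means as lines, for 12 genes linked to a region of the homo pre-B list only. In the 6 upper genes every homo library lies above every WT library, as for Prdm1 (157 to 253 against 13.3 to 15.7), and in the 6 lower genes below, as for Adam19 (22.7 to 42.5 against 535 to 557).

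The linked genes with the largest falls had mostly intermediate het levels. Adam19, a membrane metalloprotease with a region at chr11:46072177-46072446 (fold 4.71), had 535, 557 and 544 CPM in WT, 219, 156 and 215 in het, with 42.4, 42.5 and 22.7 in homo. It fell by 3.86 ± 0.22 in homo against WT (adjusted p = 8.5e-06), by 1.47 in het against WT (adjusted p = 0.00215) and by 2.40 in homo against het (adjusted p = 0.00222). Sh3pxd2a, the podosome scaffold TKS5, holds 2 regions and had 107, 96.9 and 93.3 CPM in WT, 24.6, 20.0 and 27.1 in het, with 7.89, 14.2 and 5.99 in homo. It fell by 3.30 ± 0.25 (adjusted p = 3.41e-05). Both genes show 3 groups that do not overlap.

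Among the other largest falls, Cuedc1 went from 13.2, 12.1 and 15.4 CPM in WT to 1.42, 1.23 and 0 in homo (-3.54 ± 0.35, adjusted p = 0.000115). Pde4c, a cyclic AMP phosphodiesterase with a region 1155 bases past its end and 1474 from the start of Rab3a, went from 80.4, 68.2 and 59.6 to 13.6, 7.24 and 8.38 (-2.79 ± 0.38, adjusted p = 0.000751). Lrrc10b went from 20.8, 20.9 and 21.0 to 1.58, 2.77 and 0 (-3.47 ± 0.54, adjusted p = 0.00181). Rasgef1a had 54 counts over the WT libraries and 1 over the homo libraries, a ratio of 43.2 with an exact 95% interval from 7.43 to 1737 that covers counting error only. Rtn4rl2 and 6330409D20Rik, both under 4 CPM in every WT library, fell too. Without homo replicate 1 or 2 neither was called, Rtn4rl2 also not without WT replicate 3 (0.00177 to 0.0804 over 11 alternatives), and 6330409D20Rik also not without any 1 WT library or with sex as a term (0.0076 to 0.127 over 12).

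The largest rises were mostly genes near 0 in WT. Sema4g, a transmembrane semaphorin with a region 844 bases from its start at chr19:44990188-44990544 (fold 5.57), had 2.54, 1.96 and 1.93 CPM in WT, 119.8, 62.7 and 93.7 in het, with 162, 139 and 79.0 in homo. It rose by 5.89 ± 0.38 in homo (adjusted p = 1.48e-05) and by 5.41 in het (adjusted p = 0.000101), and the het and homo libraries overlap. Etl4 rose from 0.477, 0.178 and 0.803 CPM in WT through 2.78, 2.93 and 3.31 in het to 16.6, 15.3 and 15.6 in homo (4.94 ± 0.32, adjusted p = 1.48e-05).

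Scn11a and Scn3a encode voltage-gated sodium channels of neurons. Scn11a rose from 4.29, 4.64 and 1.93 CPM in WT to 20.9, 19.0 and 24.3 in het, with 64.5, 41.3 and 38.9 in homo (3.76 ± 0.31, adjusted p = 4.96e-05). Scn3a had 2 counts over the WT libraries, 31 over het and 46 over homo, a homo to WT ratio of 28.8 (95% interval 7.52 to 245). Its mean in homo pre-B cells was 2.84 ± 1.08 CPM (SD, n = 3). In the separate scaling of all 18 libraries Scn3a stood at 40.7 CPM in WT pre-pro B cells and 0.114 in WT pre-B cells.

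Olfm1, a secreted glycoprotein of neural tissue, had 2 counts over WT and 149 over homo, a ratio of 93.1 (25.3 to 776). Gucy2g, a receptor guanylyl cyclase, had 0 counts over the WT libraries and 50 over homo, at least 20.8-fold higher when the WT group is set to 3 counts in total. Gsg1l rose from 0.635, 0.892 and 0.321 CPM to 12.8, 15.1 and 10.8 (4.39 ± 0.38, adjusted p = 6.15e-05).

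The heat shock genes Hspa1a and Hspa1b, neighbours on chromosome 17, each have a region over the start site. They are near-identical copies whose reads the counting may have split or dropped, so their values are uncertain. Hspa1b had 1.75, 1.61 and 2.25 CPM in WT, 6.34, 6.83 and 11.4 in het, with 16.1, 18.6 and 61.1 in homo, highest in homo replicate 3 (3.94 ± 0.58, adjusted p = 0.00129). Hspa1a had 2 counts in WT and 60 in homo, a ratio of 37.5 (9.94 to 317) that pools uneven libraries. Its homo libraries had 2.05, 2.47 and 18.6 CPM, again highest in replicate 3. The Hspa1a call was lost without any 1 WT library and with sex as a term (7.31e-05 to 0.0876 over 12 alternatives). Over the 69 genes whose promoter window touched a region, 41 were tested and 4 were called (9.76%), against 15.9% of all genes and 27.0% of linked genes. Those called were Hspa1a, Hspa1b and Zfp428, higher, and Tlr9, lower.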

How the data were processed

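Ikaros and Aiolos ChIP-seq regions were deposited as 1 broad peak list per library, with the authors' fold of signal over the caller's background (a ratio), −log10 q and a display score that was not used. RNA came as deposited read counts per gene for 18 libraries, of which the 9 pre-B libraries enter the genotype contrasts. Per the submitters' processing notes, STAR 2.7.0, HISAT2 2.1.0 and MACS2 2.1.1 were used with mm10; their settings and the ChIP depth are not given in the sources used here. Lines of the count files that name no gene (no feature, 29.85% to 40.15% of each library) were left out.

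Regions were intersected in Python 3.11.15 with a minimum overlap of 1 base. Genes were placed by symbol, then synonym, in RefSeq's GRCm38.p6 (24311 of 24459, 99.4%) and linked within 5 kb of their span. Strand and exons were not used. Counts were fitted with edgeR 4.0.16 (filterByExpr, TMM, robust quasi-likelihood, Benjamini-Hochberg adjusted p under 0.05), with the 9 pre-B libraries together for the genotype contrasts and all 18 for the stage contrast, and log2 differences are given with their SE. The model was tested on simulated data. CPM are TMM-scaled. DESeq2 1.42.0 and the other alternatives are in the closing section.

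Named genes are the 10 called linked genes with the largest change in each direction, genes of the 10 regions of highest fold and the 5 widest, the 5 genes with most regions, called linked genes of 14 pathway lists (up to 4 linked genes where none was called), Ikzf1 and Ikzf3. The regions and lists were chosen with earlier results of these data known. Some genes that this rule names are not reported here.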

Additional observations from a re-analysis of the deposited data

How the results depend on the processing

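A stricter −log10 q of at least 5 left 1545 regions and 929 linked genes, of which 67 and 60 were called higher and lower in homo against WT, 28 and 23 in het against WT, 11 and 11 in homo against het, and 188 and 214 between stages. That setting left out the regions linked to Prdm1, Sdc1, Tlr9, Cd22, Stat5a and Vav1, and kept those of Erg, Adam19 and Sema4g. Linking within 20 kb gave 3469 genes, with 219 lower in homo against WT, 84 lower in het, and 644 and 750 between stages. In homo against WT, library size as a covariate called 3456 genes (linked 234 and 219). In het against WT, DESeq2 called 1079 genes (88 linked lower), a minimum mean of 50 counts 455, and the library size covariate 3005 (184 and 195). In homo against het, DESeq2 called 507 (46 and 47), the minimum mean 136 (12 linked higher), the covariate 1604 (107 and 106) and sex as a term 359 (39 linked higher).

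Same-numbered libraries did not deviate together (correlations from -0.516 to 0.116 over the 4 contrasts, not all over 0.1), so the main fits did not pair samples. Such correlations cannot show whether same-numbered libraries share an animal. By RNA, same-numbered pre-pro B and pre-B libraries had the same sex in het (XX, XY, XX) and in homo (XY, XX, XY). All WT libraries were XX. With the replicate block, homo against WT called 1125 genes (linked 93 and 79), het against WT 383 (35 and 26) and homo against het 71 (6 and 6), and 11 of the 35 named genes called in homo against WT were no longer called.

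Leaving out 1 library at a time gave 1055 to 2097 genes in homo against WT (linked 82 to 164 higher, 76 to 141 lower), 336 to 756 in het against WT (26 to 56, 22 to 50), 52 to 374 in homo against het (6 to 35, 5 to 30) and 7417 to 7551 between stages (368 to 377, 419 to 425). The counts over all genes moved by over 1.5 times without any 1 WT library (homo against WT and het against WT), without het replicate 1 (het against WT and homo against het) and, in homo against het, without homo replicate 1, 2 or 3, the last raising the count to 374; the cause was not tested. In each of the 19 alternatives of each contrast the share called was higher among linked genes than over all genes. Homo replicate 3, with 1888871 gene counts, limits the low genes.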

Other observations

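The regions of the mutant pre-B list only that touched a promoter window included those of 3 genes known to be imprinted, picked out after the values were seen: Mest (fold 5.94), Nap1l5 (8.25) and Mcts2 (7.47). None of the 3 passed in homo against WT pre-B RNA, with log2 differences of 0.36, -1.02 and -0.18.

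The regions were spread over the autosomes roughly as the mutant regions that overlap the WT pre-B list, with 0.89 regions per such region on chromosome 5, 1.33 on chromosome 13 and 0.67 on X.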
